A study of Drosophila melanogaster with 4 samples.

Results

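The centromere-facing ends of chromosome arms X, 2L and 3L were examined as the last 2 Mb of each assembled arm in FlyBase r5, which are X:20422828-22422827, 2L:21011545-23011544 and 3L:22543558-24543557. Members were the enriched regions of the histone mark H3K9acS10P whose midpoint lay in these spans, and position alone chose them. There were 406 members among the 15374 regions of the series-level list, of which 164 lay on X, 133 on 2L and 109 on 3L. The same rule found 109 of 4619 regions in the list of ChIP replicate 1 and 257 of 10280 in that of ChIP replicate 2. The samples were 2 ChIP and 2 input libraries from Drosophila melanogaster embryos 14 to 16 h old, of the wild-type strain Oregon-R (Oregon-R-modENCODE), reared in population cages. Both ChIP libraries used 1 lot of antibody Ab12181, all 4 libraries share strain, genotype and age, and the study has no treated or mutant group. Whole embryos mix all cell types, so fewer cells carrying the mark and less of the mark per cell cannot be told apart. The labels do not say whether separate embryo collections gave the replicates, and their spread may reflect technique alone.

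On all 3 arms the coordinates run toward the centromere, so the last bases of X, 2L and 3L lie toward the pericentric heterochromatin. Where along the spans that heterochromatin begins was not determined here. That chromatin is rich in repeats and transposons and is known for methylation of histone H3 at lysine 9, which is bound by the protein HP1. H3K9acS10P carries an acetyl group on the same lysine, which one molecule of H3 cannot hold together with the methyl mark, and a phosphate on the neighbouring serine. In fly interphase nuclei that serine is phosphorylated by the kinase JIL-1, whose loss is known to let the methylated form spread along the arms. Some fly genes, such as light at the base of 2L, are active within heterochromatin.

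H3K9acS10P covered less of each arm end than of the same arm's interior, which is the arm outside its first and last 2 Mb. A covered share is the percent of bases that lie inside regions. In the series-level list the 3 ends together were covered to 14.5%, against 27.8% of their interiors. In replicate 1 the shares were 4.42% at the ends and 8.35% in the interiors, and in replicate 2 they were 10.1% and 20.7%. The ratio of end to interior was 0.530 in replicate 1 and 0.488 in replicate 2, with a mean of 0.509 ± 0.0298 (SD, n = 2), although replicate 2 covered far more bases. No test was run, because 2 replicates cannot bring an exact two-sided sign test under p = 0.5, and the values stand as descriptions.

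The 3 ends differed in how much of the mark they kept. On 3L the end was covered to 2.97% in replicate 1 and 8.54% in replicate 2, against 7.78% and 20.5% of the 3L interior. The ratio on 3L was 0.382 and 0.417 in the 2 replicates and 0.420 in the series-level list, the lowest of the 3 arms in each list when all regions were counted. On X the end was covered to 4.44% in replicate 1 and 11.6% in replicate 2, against 9.80% and 21.8% of the X interior, giving ratios of 0.454 and 0.531. On 2L the replicates differed most. The 2L end was covered to 5.84% in replicate 1 and 10.1% in replicate 2, against 7.55% and 19.7% of the 2L interior, so the ratio was 0.774 in replicate 1 and 0.512 in replicate 2. The mean ratios were 0.399 ± 0.0246 on 3L, 0.492 ± 0.0548 on X and 0.643 ± 0.186 on 2L (SD, n = 2 each). X and 2L thus lay within the spread between replicates of each other, while 3L lay below X in both replicates. This order of 3L and X did not hold without the regions scoring under the median of their list, where the mean ratio was 0.490 on 3L and 0.410 on X. For the last 1 Mb alone the mean ratio was 0.0980 on 3L, 0.392 on X and 0.494 on 2L.

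**Figure D1:**
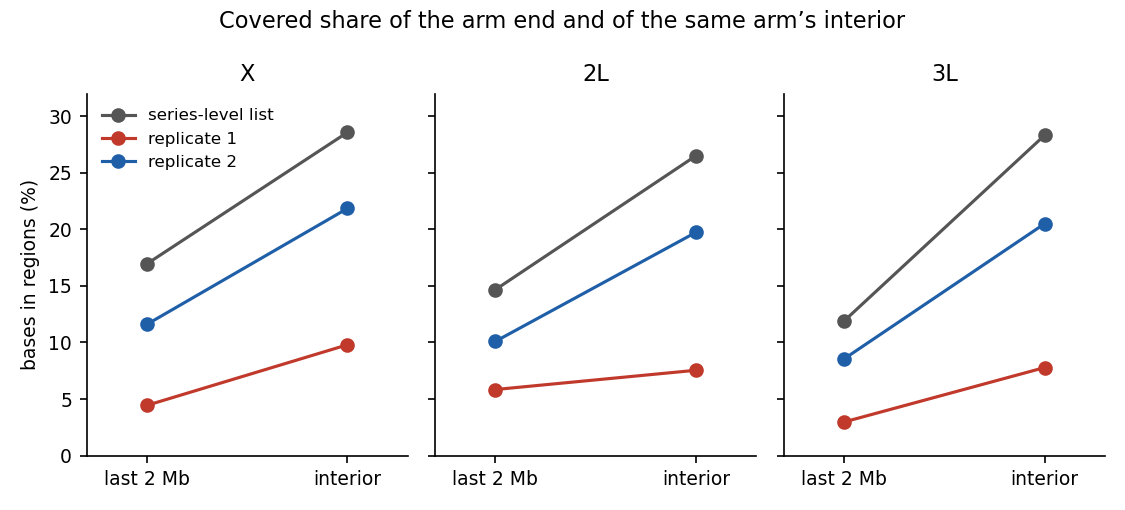
Percent of bases inside regions in the last 2 Mb (left) and the interior (right) of X, 2L and 3L, with 1 line for each list. Each of the 9 lines is lower at the end, and the smallest difference is that of replicate 1 on 2L, 5.84% against 7.55%.

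Each arm was also divided into 2 Mb blocks counted from its centromere-facing end. In the series-level list the last block was the lowest of 11 on X, of 11 on 2L and of 12 on 3L. The block next to it was covered to 39.5% on X, 32.2% on 2L and 38.1% on 3L, each above the median of the blocks other than the last. In both replicates too, the adjoining block lay above that median on every arm, at 8.81 to 12.0% in replicate 1 and 23.4 to 30.5% in replicate 2. In replicate 2 the last block was also the lowest on each arm. In replicate 1 it was the lowest on X and 3L, but the last block of 2L ranked 4 from the lowest of 11.

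Members were fewer than in the interiors on all 3 arms, but narrower by median in every list on X alone. The 3L end held 54.5 regions per Mb in the series-level list, against 124.1 in the 3L interior. The 2L end held 66.5 against 110.4, and the X end 82.0 against 102.6. In replicate 1 the densities were 12.5 per Mb against 34.3 on 3L, 24.0 against 32.5 on 2L and 18.0 against 39.6 on X. In replicate 2 they were 38.0 against 81.3 on 3L, 43.0 against 75.4 on 2L and 47.5 against 68.2 on X. In the series-level list the median width of members was 1832 bp at the 3L end against 1694 bp in its interior, and 1766 against 1751 bp on 2L. At the X end it was 1639.5 bp against 1828.5 bp. In replicate 1 members had a median of 2318 bp on 3L, 2315 bp on 2L and 1968 bp on X, against 2024, 2039 and 2104 bp in the interiors. In replicate 2 all 3 ends had the lower median, by 1811 against 1957.5 bp on 3L, 1959.5 against 1986 bp on 2L and 1758 against 2134 bp on X. Regions over 10 kb numbered 1 of 164 members on X, or 0.610%, against 2.33% in the X interior. On 2L they were 1 of 133, or 0.752%, against 1.14%, and on 3L 0 of 109 against 0.942%, counts too small to tell those ends from their interiors.

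In steps of 100 kb, the decline on 3L was abrupt in the series-level list and in replicate 2. The 4 steps from 1600 to 2000 kb from the end were covered to 44.7, 25.3, 47.6 and 38.2% in the series-level list, 3 of them above the 28.3% of the 3L interior. The next step toward the end, 3L:22943558-23043557, was covered to 2.97% in the series-level list and in replicate 2, and to 0% in replicate 1. The neighbouring step 3L:22843558-22943557 had 44.7%, 13.6% and 39.2% in the same lists. All 16 steps from 1600 kb to the end of 3L lay between 1.01 and 14.5% in the series-level list. A fit of 1 break to the 20 steps, which splits them into 2 runs with the least squared deviation, placed the break of 3L at 1600 kb from the end in all 3 lists. Endward of it, toward the centromere, steps averaged 5.13% ± 3.91 (SD over 16 steps), against 38.9% ± 9.91 outward (SD over 4 steps), in the series-level list. The break took up 87.5% of the series-level variance between steps, 47.9% of that in replicate 1 and 85.9% of that in replicate 2, so in replicate 1 it took up about as much as the 2L break. The outermost step of the 3L span, outward of the break, was covered to 1.5% in replicate 1 and 23.4% in replicate 2. In replicate 1 the outward step from 1700 to 1800 kb had 6.0%, also under the 7.78% of the 3L interior. The endward step 3L:23043558-23143557 had 8.87% in replicate 1, above that interior share. In replicate 1 the means were 1.36% endward and 9.42% outward, and in replicate 2 they were 2.71% and 31.9%. The ratio of endward to outward share was 0.145 and 0.0852, a mean of 0.115 ± 0.0419 (SD, n = 2). Each list's own fit chose the position from these same shares, so a contrast there was to be had in advance.

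The 2L end had a break at a like distance, but the bases endward of it kept more of the mark than on 3L. The break lay 1700 kb from the end in all 3 lists and took up 44.5% of the series-level variance between steps and 45.0% and 49.9% of that in replicates 1 and 2. Endward of it steps averaged 11.5% ± 8.09 (SD over 17 steps), against 32.7% ± 13.9 outward (SD over 3 steps). In replicate 1 the shares were 4.45% endward and 13.7% outward, and in replicate 2 they were 7.38% and 25.5%. The mean ratio was 0.307 ± 0.0243 (SD, n = 2), again at a position that each list's own fit chose. The step 1100 to 1200 kb from the end, 2L:21811545-21911544, stood out with 35.1% in the series-level list, while replicate 1 had 6.79% there and replicate 2 had 16.1%. It held 21 members with a median width of 1280 bp, and 13 of them overlapped no region of either replicate. By contrast, the 2 steps from 700 to 900 kb held 13 members with 9 in both replicates and none in neither.

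X showed no single edge. Its best break, at 900 kb in the series-level list and replicate 2, took up 15.5% and 15.8% of the variance between steps. In replicate 1 the best break lay at 1300 kb, took up 7.99%, and had the higher mean endward, 5.58% against 2.33%, so the direction was not shared by the replicates. At the 900 kb position replicate 2 had 7.06% endward against 15.3% outward, but its own fit chose that position. Replicate 1, whose own fit did not choose it, had 3.00% against 5.63% there. Steps of high and low coverage were interspersed along the X end. Steps above the 28.6% of the X interior lay at 500 to 600, 900 to 1000, 1100 to 1200, 1200 to 1300, 1400 to 1500 and 1800 to 1900 kb, with 29.9 to 41.6% in the series-level list. The other 14 steps were covered to 0 to 15.6%, 3 of them under 5%. The step at 700 to 800 kb, X:21622828-21722827, held no region in any list. The step at 1600 to 1700 kb held 1 region, which covered 1.82% of bases in the series-level list and 1.79% in replicate 2, while replicate 1 had none.

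**Figure D2:**
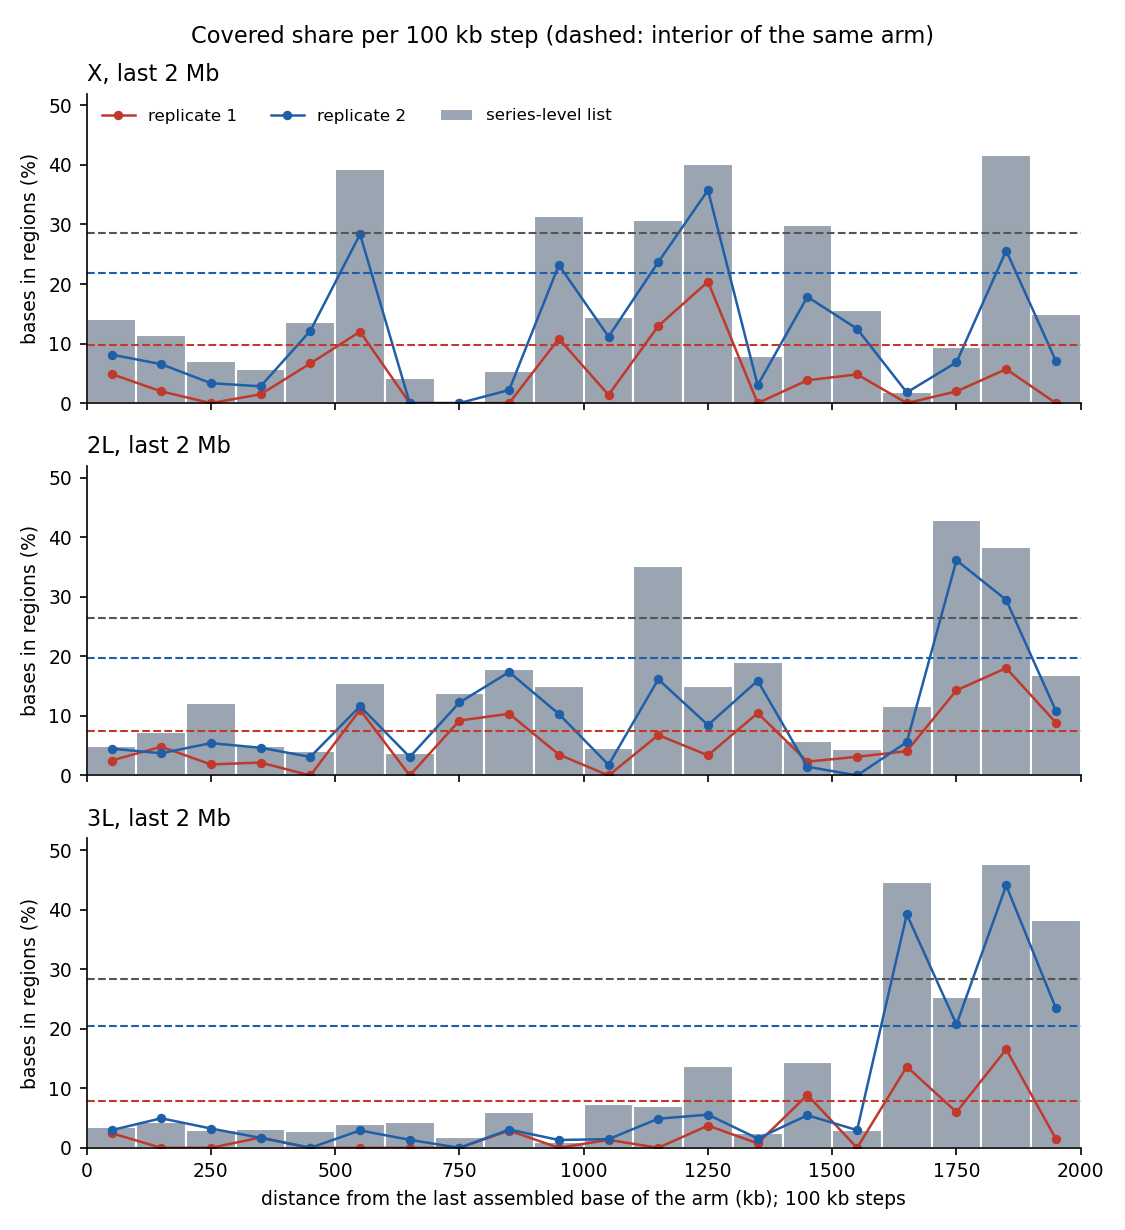
Percent of bases inside regions in 100 kb steps against distance from the last assembled base, with bars for the series-level list, points for the replicates and dashed lines for the interior of the same arm in each list. On 3L the share stays at or under 14.5% endward of 1600 kb, on 2L it is intermediate endward of 1700 kb, and on X the 6 steps of 29.9 to 41.6% lie on both sides of 900 kb, among steps of 0 to 15.6%.

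A second description asked from where to the end of the arm every step stayed under 50% of the interior share. On 3L this low stretch measured 1400 kb in the series-level list and replicate 1 and 1600 kb in replicate 2. On X it measured 500 kb in the series-level list and 400 kb in both replicates. On 2L it was 500 kb in the series-level list and replicate 2 but 100 kb in replicate 1. The length depended on the step size, and with 50 kb steps the low stretch was 0 kb on X and 1050 kb on 3L in the series-level list. Low steps were not limited to the low stretch. Of the 20 steps of each end, 15 on 3L, 11 on X and 10 on 2L were under 50% of the interior share in the series-level list. Among interior steps that share was 22.4% on 3L, 25.5% on X and 24.2% on 2L. In replicate 1 low steps made up 80% of the 3L end, 70% of X and 50% of 2L, against 35.6, 37.5 and 39.5% of interiors. In replicate 2 they made up 80, 55 and 55%, against 27.8, 29.9 and 30.5%. In the series-level list, steps under 5% coverage numbered 11 of 20 at the 3L end, against 4 of 205 in the 3L interior. They numbered 5 of 20 at the 2L end against 14 of 190, and 3 of 20 at the X end against 12 of 184. Replicate 1 had many such steps in the interiors too, with 83 of 205 on 3L, 88 of 190 on 2L and 70 of 184 on X. Its ends had 16, 12 and 14 of 20. In replicate 2 the ends had 14, 8 and 7 of 20, against 24, 29 and 28 in the interiors.

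The replicates had similar profiles along each arm, at different levels. Across the 20 steps of an arm, the covered shares of replicates 1 and 2 had a Spearman rho of 0.89 and a Pearson r of 0.92 on X, 0.85 and 0.89 on 2L, and 0.66 and 0.86 on 3L. These correlations are descriptions across neighbouring steps, which are not independent and share the same 2 libraries. Replicate 2 was higher in 51 of the 60 steps and lower in 5, and 4 steps were empty in both. Of those 51 steps, 15 were empty in replicate 1, 7 of them on 3L. Of the other 5, 1 on 2L was empty in replicate 2. The steps where replicate 1 was higher were 3 on 2L and 2 on 3L, among them 3L:23043558-23143557 with 8.87% in replicate 1 and 5.47% in replicate 2.

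Region-free stretches over 50 kb were more frequent at the ends than in the interiors of all 3 arms in the series-level list and in replicate 2, but in replicate 1 on 2L alone. In the series-level list there were 11 at the 3L end, or 5.50 per Mb, against 0.828 per Mb in the 3L interior. The 2L end had 5.00 per Mb against 1.58, and the X end 3.5 per Mb against 2.06. In replicate 2 each end had 5.50 per Mb, against 2.63 on 3L, 2.95 on 2L and 3.80 on X. In replicate 1 the ends had 4.50 per Mb on 3L, 6.00 on 2L and 5.00 on X, against 5.31, 5.37 and 5.16 in the interiors. These counts take no account of length. The median stretch between regions of replicate 1, of any length, was 28.5 kb at the 3L end against 9.30 kb in its interior. It was 20.1 against 7.80 kb on 2L and 10.1 against 5.44 kb on X. On 3L the longest were 3L:23472097-23606220, of 134.1 kb, and 3L:24374755-24500690, of 125.9 kb. Both were longer than any stretch in the 3L interior, where the longest was 106.2 kb. On X the longest were X:21610242-21762400, of 152.2 kb, and X:20698730-20807347, of 108.6 kb, and the first exceeded the 149.5 kb maximum of the X interior. On 2L they were 2L:22556107-22664852, of 108.7 kb, and 2L:21381891-21468402, of 86.5 kb, under the interior maximum of 149.4 kb. In replicate 1, which has fewer regions, the longest stretch at each end was shorter than the longest of the same interior. It measured 343.6 kb on X, 215.3 kb on 2L and 513.9 kb on 3L, against 382.5, 520.7 and 561.4 kb. In replicate 2 the longest measured 260.1 kb at the X end, 216.8 kb at the 2L end and 252.6 kb at the 3L end, against 323.3, 190.5 and 171.8 kb.

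**Figure D3:**
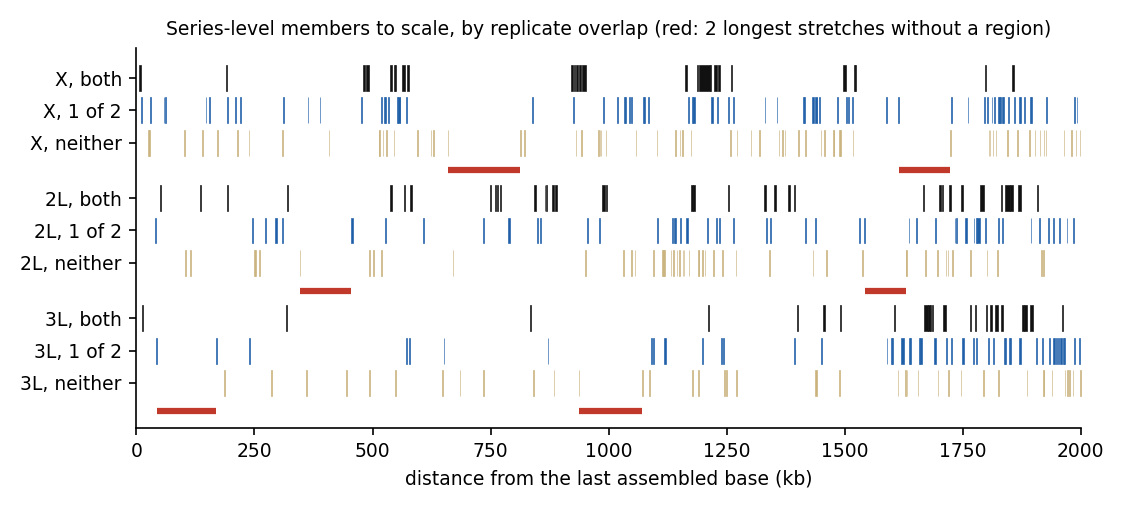
Series-level members drawn to scale against distance from the last assembled base, in rows for members that overlap both replicates, 1 of 2 or neither, with red bars for the 2 longest region-free stretches of each arm. Members in both replicates crowd outward of 1600 kb on 3L, are spread over the whole span on 2L and form separate groups on X.

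Of the 406 members, 85 overlapped both replicate lists by at least 1 bp, or 20.9%, against 23.3% of the 6537 regions in the interiors. Another 154 overlapped replicate 2 only, 16 replicate 1 only and 151 neither. The share of members in both was 27.1% on 2L, 21.1% on 3L and 15.9% on X, against 23.0%, 21.3% and 26.2% in the interiors of 2L, 3L and X. Among the replicates' own members, 91 of the 109 from replicate 1 had a counterpart in replicate 2. This is 83.5%, with a 95% Wilson interval of 75.4 to 89.3%, against 87.1% in the interiors (85.6 to 88.5%). Of the 257 from replicate 2, 87 had a counterpart in replicate 1, or 33.9% (28.3 to 39.8%), against 37.2% (35.8 to 38.7%). By arm, the replicate 2 share was 27.4% at the X end (19.4 to 37.1%) against 42.3% in the X interior (39.6 to 45.1%). It was 44.2% (34.2 to 54.7%) against 36.1% (33.6 to 38.6%) on 2L, and 30.3% (21.1 to 41.3%) against 34.4% (32.2 to 36.7%) on 3L. These intervals cover the counting of regions only and are too narrow where neighbouring regions depend on each other, and the overlap to be had by chance falls with coverage.

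The score of a region is the authors' own value, used only within 1 list. X members had a lower median score than the X interior in each list, 0.52 against 0.55 in the series-level list, 0.76 against 0.83 in replicate 1 and 0.69 against 0.79 in replicate 2. Members on 2L and 3L went another way in replicate 1, with medians of 0.78 on 2L and 0.77 on 3L, each against 0.70 in the interior. In the series-level list the medians were 0.45 on 2L and 0.48 on 3L, each against 0.46. In replicate 2 they were 0.61 against 0.65 on 2L and 0.67 against 0.65 on 3L. The interquartile ranges of members and interior regions overlapped in all 9 of these comparisons.

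Regions endward of the break ranked above those outward and those of the interior in replicate 1 on 2L and 3L, but not above the interior on X. The 31 replicate 1 regions endward of the 2L break had a median percentile of 76.7 within their list, against 42.3 for the 17 outward of it and 42.1 for the 2L interior. On 3L the 9 endward regions had a median percentile of 85.4, against 54.9 for the 16 outward and 42.2 for the interior. On X the 11 endward regions had a median of 56.3, against 54.6 for the 25 outward and 66.7 for the interior. Replicate 2 did not show this full order on 2L or 3L. On 2L it had 31.9 endward, below both the 34.3 outward and the 43.7 of the interior. On 3L it had 47.5 endward, below the 55.6 outward but above the 44.0 of the interior. On X it had 60.2 endward against 50.8 outward and 72.7 in the interior. The contrast was sharpest among the 7 members endward of the 3L break that overlapped both replicates. Each of the 7 held a higher percentile in replicate 1 than in replicate 2, with medians of 87.5 and 3.58. Among the 16 shared members outward of the 3L break, 3 did so, and the medians were 54.9 and 73.3. On X the 9 shared endward members had medians of 87.8 and 88.0, with 4 higher in replicate 1, and the 26 on 2L had 76.1 and 66.3, with 14 higher in replicate 1.

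**Figure D4:**
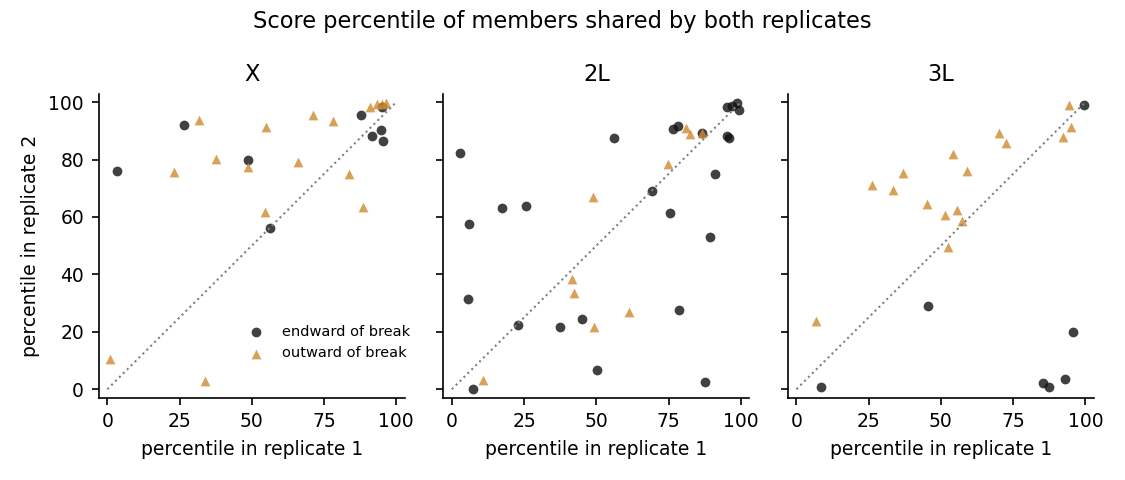
Score percentile within replicate 1 (horizontal) and replicate 2 (vertical) of the members that overlap both replicate lists, with circles endward and triangles outward of the series-level break. On 3L, 6 of 7 circles lie under a percentile of 50 in replicate 2, and 5 of 7 lie above 50 in replicate 1.

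The highest-scoring members seen in both replicates of 3L were 3L:23085303-23089330, 3L:22707595-22712939 and 3L:22867807-22874560. The first lay endward of the break and scored 1.35 in the series-level list and 1.74 and 1.58 in replicates 1 and 2, at percentiles of 98.7, 99.5 and 98.8. It was the exception among the 7 shared endward members, and ranked near the top in each list. The other 6 scored 0.31 to 0.81 in the series-level list. Of these, 3L:23141760-23144328 scored 1.26 in replicate 1 and 0.55 in replicate 2, at percentiles of 95.6 and 20.1. The member 3L:23707444-23710131 scored 1.17 and 0.40, at percentiles of 92.9 and 3.58. The member 3L:23330078-23333750 scored 1.02 and 0.36, at percentiles of 85.4 and 1.99. The remaining ones were 3L:23050371-23053153, 3L:24224167-24226044 and 3L:24529609-24531797. Outward of the break, 3L:22707595-22712939 scored 1.26 and 3L:22867807-22874560 scored 1.00 in the series-level list. The member 3L:22867807-22874560 was also the widest shared member of this end, at 6.75 kb, followed by 3L:22719368-22724813 at 5.45 kb and 3L:22657799-22663201 at 5.40 kb.

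On 2L the 3 highest-scoring shared members all lay endward of the break. The first was 2L:22442110-22444523, 567.0 kb from the end, with a series-level score of 1.46 and scores of 1.35 and 1.57 in replicates 1 and 2. Next to it lay 2L:22427278-22432823, whose scores in the same order were 1.42, 1.52 and 1.91 and which matched 2 regions of replicate 2. After these came 2L:21678131-21682905, scoring 1.33, 1.73 and 1.37. In all, 26 of the 99 members in the 1700 kb endward of the 2L break were shared, or 26.3%. In the 300 kb outward of it 10 of 34 were, or 29.4%. Below the first 3, the best scoring were 2L:22246250-22248631 at 1.33, 2L:22239036-22241409 at 1.15, 2L:22873862-22876242 at 1.08, 2L:22166144-22169569 at 0.98 and 2L:22127917-22130716 at 0.96. These 5 were compact, from 2.37 to 3.43 kb. The 3 widest shared members lay outward of the break, at 2L:21160974-21172790 with 11.8 kb, 2L:21215847-21224029 with 8.18 kb and 2L:21137223-21145128 with 7.91 kb.

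On X the widest member was X:21208478-21232408, of 23.9 kb, which matched 1 region in replicate 2 and 4 in replicate 1. It lay at the edge of the 100 kb step with the highest share of the X end in both replicates, 20.4% in replicate 1 and 35.8% in replicate 2. Its nearest members were X:21205592-21208466, scoring 0.68, and X:21233420-21236548, scoring 0.64, both shared. Farther off on its 2 sides lay X:21194093-21199057, scoring 1.43, and X:21256297-21261933, scoring 1.32. The highest-scoring shared member of X was X:20920794-20925731, with a series-level score of 1.51 and scores of 1.31 and 1.81 in replicates 1 and 2. The other wide ones were X:21471589-21478473, of 6.89 kb, and X:21854693-21860453, of 5.76 kb. Of the 9 shared members endward of 900 kb, 7 lay in a group with midpoints between 481.7 and 575.4 kb from the end. The group included X:21845733-21849183 at 1.05, X:21930952-21935773 at 0.99, X:21938484-21943832 at 0.96, X:21854693-21860453 at 0.93, X:21872302-21874618 at 0.83, X:21874924-21877095 at 0.65 and X:21882299-21886615 at 0.55. The stretch from 577.0 to 837.1 kb from the end, just outward of this group, held no region in replicate 2. In replicate 1 the empty stretch ran from 577.2 to 920.8 kb. The series-level list did hold regions there, and its 3 from 600 to 700 kb overlapped neither replicate.

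**Figure D5:**
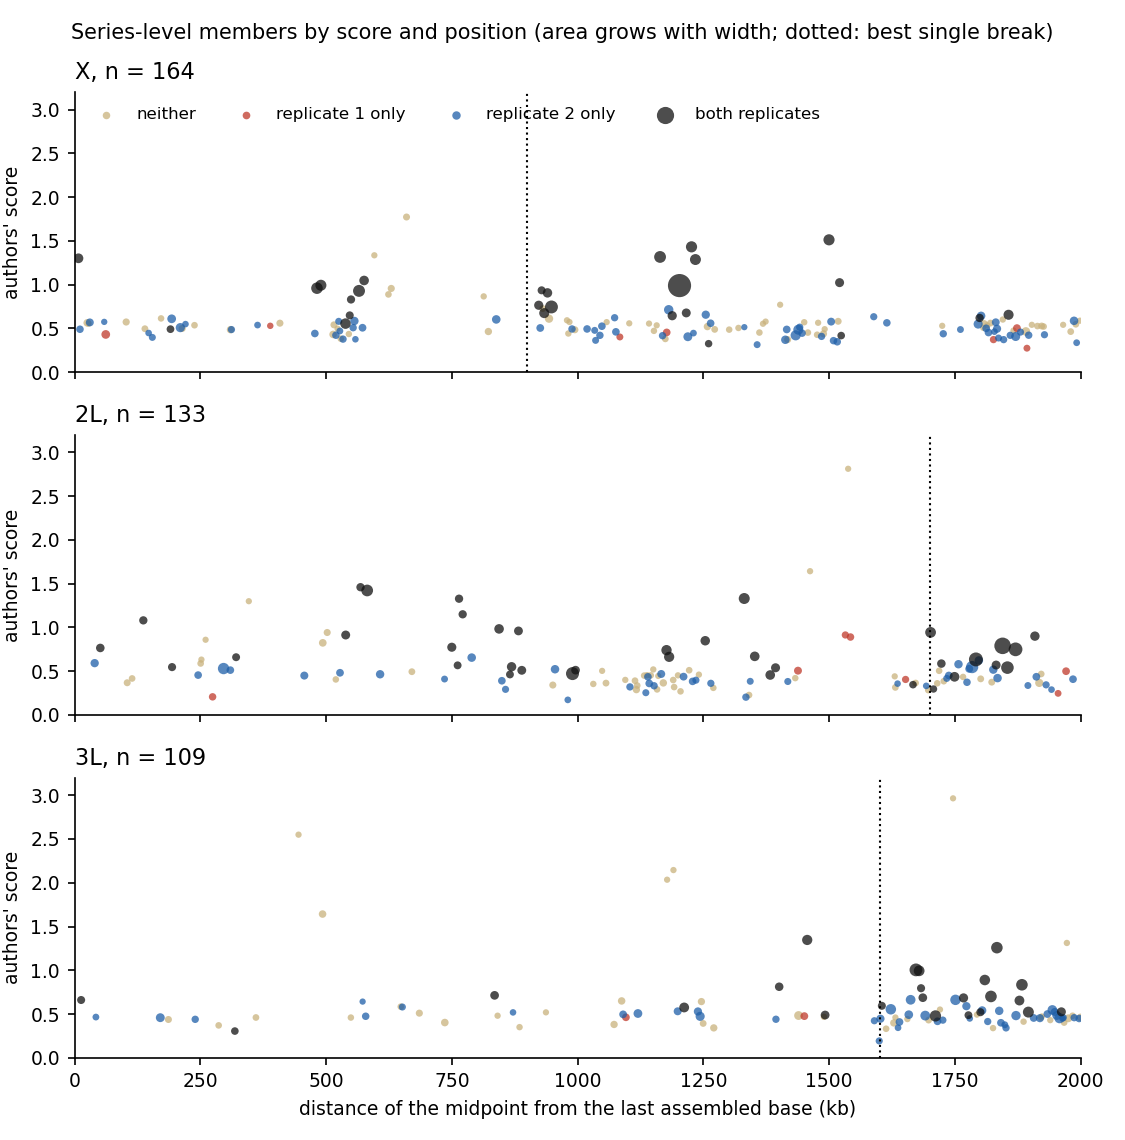
Authors' score of the 406 series-level members against distance of the midpoint from the last assembled base, coloured by overlap with the replicate lists, with area growing with width and a dotted line at the best break. Members in both replicates reach 1.51 on X, 1.46 on 2L and 1.35 on 3L, while the points from 1.64 to 2.96 overlap neither replicate.

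Most members with the very highest scores had no counterpart in the replicates, and the limit of 1.5 used here was chosen after the values were seen. Of the 9 members scoring at least 1.5 in the series-level list, 8 overlapped neither replicate, against 4 of 22 such regions in the interiors. The 8 were narrow, from 1003 to 1832 bp. They were led by 3L:22796912-22797914 with a score of 2.96, 2L:21473447-21474451 with 2.81 and 3L:24098027-24099059 with 2.55. 5 of the 8 lay on 3L, and 7 lay endward of their arm's break. Of all 406 members, 195 lay endward. The endward sides take up 900 kb of the 2 Mb on X, 1700 kb on 2L and 1600 kb on 3L. Scores of this size made up 4.59% of the 109 members on 3L, against 0.157% of regions in the 3L interior. The sources used here do not say how the series-level list was built from the replicates.

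The regions nearest the end lay within 12 kb of the last assembled base on X and 3L, and farther from it on 2L. On X the nearest was X:22413493-22417083, 5.74 kb from the last base, and was also the nearest in both replicates. It scored 1.3 in the series-level list and 1.24 and 1.46 in replicates 1 and 2, at percentiles of 98.5, 94.9 and 98.2. On 3L the nearest was 3L:24529609-24531797, 11.8 kb from the last base and again found in both replicates. It scored 0.66 in the series-level list and stood at percentiles of 87.5 in replicate 1 and 0.700 in replicate 2. On 2L the nearest region of the series-level list, 2L:22970604-22972986, was matched in replicate 2 only, 38.6 kb from the last base. The nearest found in both replicates was 2L:22959297-22961884, 49.7 kb from the last base.

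At the outer limit of the spans, 2 Mb from the end, the nearest midpoints inside and outside lay in unremarkable regions on 2L and 3L. On 2L they were 2L:21025975-21027902 with a score of 0.41 inside and 2L:21009586-21010601 with 0.48 outside. On 3L they were 3L:22543091-22544915 with 0.46 inside and 3L:22541634-22542703 with 0.47 outside. On X the nearest inside was X:20423969-20424980, of 1012 bp and 0.59, and the nearest outside was X:20390690-20396759, of 6070 bp and 0.89.

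The last 500 kb were set beside the heterochromatin of the same arm that is assembled as a separate sequence. On 3L the last 500 kb were covered to 0.840% in replicate 1 and 2.57% in replicate 2, a mean of 1.70% ± 1.22, against 1.47% ± 0.318 on 3LHet (SD, n = 2 each). On 2L they averaged 3.28% ± 1.42, against 1.39% ± 1.05 on 2LHet. On X they averaged 4.80% ± 2.54, against 4.36% ± 1.71 on XHet (SD, n = 2). The difference was within the spread between replicates on 3L and X. On 2L it was larger than either SD, but in replicate 1 the shares were 2.27% and 2.14%, and 2LHet held 3 regions in replicate 1 and 1 in replicate 2. XHet is 204.1 kb long and held 3 and 5 regions in replicates 1 and 2. In the series-level list the last 500 kb had 3.36% on 3L, against 3.68% on 3LHet. On 2L they had 6.71% against 4.48%, and on X 10.4% against 6.04%. How well reads could be placed in repeats near the ends was not measured, and its part in the low shares was not tested.

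The centromere-facing ends of the other 2 large arms, which lie at their first bases, differed from each other. The first 2 Mb of 2R were covered to 5.90% in replicate 1 and 10.1% in replicate 2, against 10.6% and 29.0% of the 2R interior. These shares were close to those of the 2L end, 5.84% and 10.1%. The first 2 Mb of 3R were covered to 13.5% and 31.2%, against 8.89% and 23.9% of the 3R interior. Coverage below that of the interior over the centromere-facing 2 Mb was thus measured on X, 2L, 3L and 2R in both replicates and on 3R in neither.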

How the data were processed

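The deposited files list H3K9acS10P regions with first base, last base and a score, for ChIP replicates 1 and 2 and for the whole series. Bowtie 0.12.7 is named as aligner in the submitters' processing notes, positions are on FlyBase r5, per the file headers, and each input served 1 replicate's list, per the labels. The region caller, its threshold, the making of the series-level list and the scale of the deposited score were not given in the sources used here. Without read counts in the lists, depth is unknown and the counting error of reads cannot be stated.

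Midpoints, covered shares, breaks, region-free stretches and overlaps (at least 1 bp) were computed in Python 3.11.15 (pandas 2.3.3, NumPy 2.4.6, SciPy 1.17.1), with functions checked on simulated data. Coordinates are 1-based, and regions or steps are no replicates of embryos.

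Per arm, the text names the 3 highest-scoring and 3 widest series-level members found in both replicates and the member nearest the end in each list. It also names the 2 longest region-free stretches, and up to 8 shared members endward of the break, by score. Other regions named were chosen after their values were seen. The members, measures and lists were chosen with earlier results of these data known. No gene or sequence is printed, since the only gene table in hand follows Release 6. Alternatives were dropping regions under the median score, merging within 500 bp, steps of 50 or 200 kb, a low threshold of 25%, an end of 1 Mb, interiors trimmed by 4 Mb, 50% overlap and each replicate alone. Limiting replicate 2 to its 4619 highest-scoring regions was added after seeing the data.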

Additional observations from a re-analysis of the deposited data

How the results depend on the processing

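Of 129 values recomputed with both replicates kept, 86 moved by no more than the spread between replicates (1 SD), a factor of 1.5 for regions per Mb, the Wilson interval for overlap, or 0.1 for rho, and 43 moved further. Leaving out 1 of 2 replicates cannot move their mean by 1 SD, so it says nothing of stability here. The spread between replicates rests on 2 values. It was 0 kb for the low stretch of X and the breaks of 2L and 3L, where any change counts as a move. For the low stretch of 2L it was 282.8 kb. The counts of 86 and 43 thus depend on these limits. Merging, 50% overlap and interiors trimmed by 4 Mb moved none. The shortened replicate 2 list moved none either, but it changes 1 of the 2 values that set the spread, so this says little of stability. Under it mean coverage was 6.16% on X, 5.56% on 2L and 4.04% on 3L, against 8.02, 7.97 and 5.76%. No paired analysis was possible because the inputs, the other group with the same replicate numbers, have no region list here. The ratios are taken within each replicate. Values below are means of replicates, then the series-level list. Without the regions scoring under the median of their list, coverage was 4.59% and 8.53% on 2L and 7.91% in the series-level list on 3L, and the ratio of end to interior 0.410 and 0.503 on X and 0.490 and 0.472 on 3L, so that in the means of replicates X was below 3L. Regions per Mb were 17.5 on X, 15.0 and 29.0 on 2L, and 13.8 and 30.0 on 3L. The low stretch was 200 kb on 2L (series-level) and 800 kb on 3L (replicates), and the break in the replicates lay at 650 kb on X, 1750 kb on 2L and 1500 kb on 3L. Overlap of replicate 1 was 74.6%, and rho was 0.63 on 2L and 0.39 on 3L. For the last 1 Mb alone the ratio was 0.392 and 0.464 on X and 0.0980 and 0.12 on 3L. In 50 kb steps the low stretch was 0 kb and 0 kb on X and 600 and 1050 kb on 3L, the break of 3L in the replicates lay at 1625 kb, and rho was 0.73 on both X and 2L. In 200 kb steps the low stretch was 400 kb on X (series-level), 600 and 800 kb on 2L and 1600 kb on 3L (series-level), the break of 2L 1600 and 1600 kb, and rho on 3L 0.88. At 25% of the interior share the low stretch was 0 and 0 kb on X, 100 kb on 2L (series-level), and 600 and 1000 kb on 3L. Its length thus depends on step size and threshold on every arm. The breaks of 2L and 3L, as means of replicates or in the series-level list, stayed between 1500 and 1750 kb under these alternatives. A mean can hide replicates that differ. They did differ where it was 1750 kb on 2L, since each break falls between 100 kb steps. With 1 replicate left out, regions per Mb ranged from 18.0 to 47.5 on X and from 12.5 to 38.0 on 3L. The cause of these moves was not tested.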
